A study of Mus musculus with 8 samples.

Results

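The genes described here are 4 ligands of NKG2D and 6 genes of antigen presentation by major histocompatibility complex (MHC) class I molecules. They were taken by name from the files, Raet1d, Raet1e, H60b and Ulbp1 on one side and B2m, H2-K1, H2-D1, Tap1, Tapbp and Nlrc5 on the other, and make up 10 of the 49315 genes listed. They were chosen with the difference between the study's 2 groups already known, so their values are given as a description and no test is drawn from them.

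The RNA came from immortalized embryonic fibroblasts of the mouse (MEFs) without OPA1, the mitochondrial inner-membrane GTPase that fuses inner membranes and shapes cristae, and the stated purpose was to see how its loss alters the transcriptome. There were 4 libraries labelled Opa1-/- and 4 labelled Opa1-/- + OPA1, the second kind from Opa1-/- cells to which OPA1 had been returned. Both groups thus carry the Opa1-/- genotype, neither was treated, and all cells were grown in the same serum-containing medium. The labels give no mouse strain, no number of clones, and no promoter or species for the returned OPA1. Total Opa1 RNA was 12.5 to 14.8 scaled TPM in Opa1-/- libraries and 14.5 to 15.6 in Opa1-/- + OPA1 libraries, so it does not check the labels.

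NKG2D is an activating receptor of natural killer cells and some T cells, and in mice its ligands are the RAE-1, H60 and MULT-1 proteins, distant relatives of MHC class I molecules that healthy cells show little of and stressed or transformed cells show more of. Classical class I molecules pair a heavy chain with beta-2 microglobulin and hold a peptide, delivered by the TAP transporter and loaded with the help of tapasin, for inspection by CD8 T cells. Natural killer cells also read class I molecules, through inhibitory receptors, and fibroblasts are known to carry low to moderate amounts of them without interferon.

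Values are TPM (transcripts-per-million), a level per transcript length, after a scaling of each library. Differences are Opa1-/- minus Opa1-/- + OPA1 on the log2(scaled TPM + 1) scale, which understates the change of genes near or below 1 TPM. Standard errors and adjusted p-values come from a limma fit of 14272 genes, adjusted by Benjamini-Hochberg. No label says whether a library stands for a culture of its own, so p-values reflect the spread among these 8 libraries alone, possibly a technical one. In bulk RNA, fewer cells carrying a transcript and less of it per cell cannot be told apart. Library depth, recovered from the steps of the TPM values, was 52.9 M to 57.8 M reads (M, 1000000 reads).

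The values of 8 of the 10 genes did not overlap between the groups. These include Tap1 and Nlrc5, which were not tested, while the share over all genes, 36.3%, covers tested genes alone. Of the 8 genes that entered the fit, 5 were past the threshold of adjusted p 0.05 as higher, beside 16.3% of all genes, and 1 as lower, beside 16.8% (33.0% in either direction). Because the genes were chosen on this contrast, nothing is read from these counts. Raet1d, Raet1e and H60b reached 1 TPM only in Opa1-/- libraries and entered the fit through that group alone, while Tap1 and Nlrc5 were too low to enter it.

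**Figure D1:**
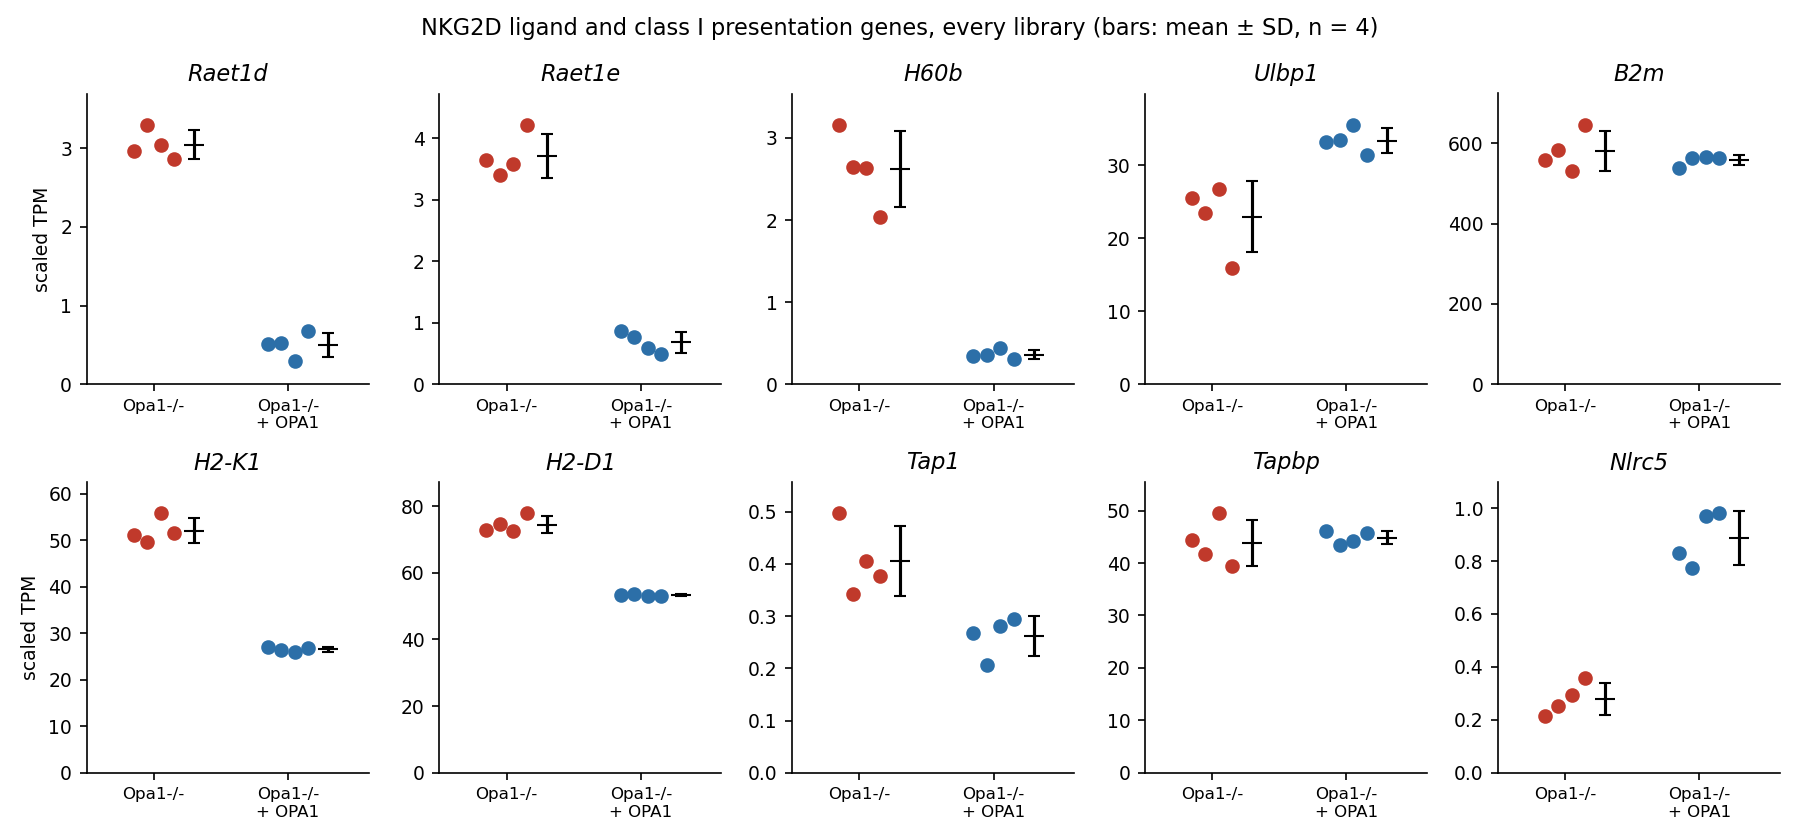
Scaled TPM (vertical axis, from 0, a separate scale for each gene) of the 10 genes in every library; each dot is a library, numbered 1 to 4 from left to right, and the bars give mean ± SD (n = 4). Raet1d, Raet1e, H60b, H2-K1, H2-D1 and Tap1 lie higher in all Opa1-/- libraries, Ulbp1 and Nlrc5 lower, and B2m and Tapbp overlap.

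In Opa1-/- cells the order of the mean levels was B2m, H2-D1, H2-K1, Tapbp, Ulbp1, Raet1e, Raet1d, H60b, Tap1 and Nlrc5. Ranges of neighbours in that order overlapped for Raet1d with H60b and for Tap1 with Nlrc5. In Opa1-/- + OPA1 cells the order was B2m, H2-D1, Tapbp, Ulbp1, H2-K1, Nlrc5, Raet1e, Raet1d, H60b and Tap1. There the ranges overlapped for Nlrc5 with Raet1e, Raet1e with Raet1d, and Raet1d with H60b. H2-K1 thus stood above Tapbp and Ulbp1 in Opa1-/- cells and below both in Opa1-/- + OPA1 cells.

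Among the NKG2D ligands, the 3 scarce ones were each 5.44 to 7.24 times higher on average in Opa1-/- libraries, and the abundant one, Ulbp1, was lower. The genes Raet1e (ENSMUSG00000053219; GRCm38 chromosome 10, 22158569 to 22374139), H60b (ENSMUSG00000075297; 22158586 to 22288849) and Raet1d (ENSMUSG00000078452; 22360552 to 22374139) are protein-coding and lie on the plus strand in one overlapping stretch. Ulbp1 (ENSMUSG00000079685; 7440362 to 7473638, minus strand) lies elsewhere on the same chromosome and shares no exon base with another gene.

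Raet1e encodes RAE-1 epsilon, a ligand held in the membrane by a lipid anchor. It was at 3.66, 3.40, 3.59 and 4.22 scaled TPM in Opa1-/- libraries 1 to 4, and at 0.872, 0.773, 0.590 and 0.498 in Opa1-/- + OPA1 libraries 1 to 4. The reads were 142, 133, 143 and 177 in Opa1-/- libraries and 36, 31, 24 and 20 in Opa1-/- + OPA1 libraries. All 4 Opa1-/- libraries were at 3.40 TPM or more and none of the others reached 1. The means were 3.72 ± 0.354 in Opa1-/- libraries and 0.683 ± 0.170 in Opa1-/- + OPA1 libraries (SD, n = 4 each), and the log2 difference was 1.49 (SE 0.10).

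Raet1d encodes the closely related RAE-1 delta. It was at 2.97, 3.30, 3.04 and 2.86 scaled TPM in Opa1-/- libraries, and at 0.508, 0.523, 0.295 and 0.671 in Opa1-/- + OPA1 libraries. Behind these values stood 77, 86, 81 and 80 recovered reads in Opa1-/- libraries and 14, 14, 8 and 18 in Opa1-/- + OPA1 libraries. The groups did not overlap, with means of 3.04 ± 0.186 in Opa1-/- libraries and 0.499 ± 0.155 in Opa1-/- + OPA1 libraries (SD, n = 4 each), a 6.09-fold ratio and a log2 difference of 1.44 (SE 0.11).

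H60b, a histocompatibility antigen that is also a ligand of NKG2D, was at 3.16, 2.64, 2.63 and 2.04 scaled TPM in Opa1-/- libraries, and at 0.345, 0.355, 0.437 and 0.310 in Opa1-/- + OPA1 libraries. The reads were 69, 58, 59 and 48 in Opa1-/- libraries and 8, 8, 10 and 7 in Opa1-/- + OPA1 libraries. Every Opa1-/- library was above every Opa1-/- + OPA1 library. The means were 2.62 ± 0.459 in Opa1-/- libraries and 0.362 ± 0.0539 in Opa1-/- + OPA1 libraries (SD, n = 4 each), with a ratio of 7.24 and a log2 difference of 1.40 (SE 0.12). These 3 differences depend on the scale: with a pseudocount of 0.1 they were 2.31 for Raet1e, 2.43 for Raet1d and 2.55 for H60b, and on recovered reads with limma-voom 2.45, 2.62 and 2.77 in the same order.

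The 3 transcripts are not fully separable. Of the 50-base words in the transcripts of Raet1d, 55.8% also occur in transcripts of other genes, all of them in Raet1e, and of those of Raet1e, 44.7% occur elsewhere, in Raet1d or H60b. For H60b the share was 7.58%. Raet1e shares 363 exon bases with Raet1d and 133 with H60b on the same strand. The sources used here do not give how reads in such bases were counted. The split between Raet1e and Raet1d is therefore uncertain, and so is any sum over the 3 genes. Summed, the 3 genes were at 9.38 ± 0.285 scaled TPM in Opa1-/- libraries and 1.54 ± 0.181 in Opa1-/- + OPA1 libraries (SD, n = 4 each).

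Since both RAE-1 genes were higher in Opa1-/- libraries, the 250 bases before their starts are shown, as RefSeq gives them for GRCm38.p6 (C57BL/6J), the second of the annotated starts for Raet1e. Capitals mark a match to the heat shock element GAANNTTC. The full windows, which also hold the next 50 bases, were 97.7% identical, 295 of 302 aligned columns. Windows were matched by symbol for 8 of the 10 genes; H60b and Nlrc5 are named only.
Raet1e, chr10:22173247-22173496, plus strand: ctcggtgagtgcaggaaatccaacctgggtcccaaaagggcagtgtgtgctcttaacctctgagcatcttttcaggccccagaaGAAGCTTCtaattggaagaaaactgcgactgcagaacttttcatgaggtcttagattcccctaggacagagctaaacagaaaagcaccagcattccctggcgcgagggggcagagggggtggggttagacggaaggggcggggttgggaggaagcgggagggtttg
Raet1d, chr10:22361644-22361893, plus strand: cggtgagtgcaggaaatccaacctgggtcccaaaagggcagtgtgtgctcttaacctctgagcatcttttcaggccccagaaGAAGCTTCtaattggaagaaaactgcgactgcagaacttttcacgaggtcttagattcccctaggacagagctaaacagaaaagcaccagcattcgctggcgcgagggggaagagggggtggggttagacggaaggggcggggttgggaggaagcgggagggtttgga

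The heat shock element began 166 bases before the second annotated start of Raet1e and 168 before the start of Raet1d. It was present in 7.86% of all 32851 promoter windows of 300 bases. Both windows also hold ATTGG, the inverted CCAAT box bound by NF-Y, which 37.4% of windows hold. Neither holds the ATF4 response element as searched, TGATGNAA, present in 3.97% of windows and in no window of these genes. The window of the first annotated start of Raet1e held no match to any motif searched and was 45.3% identical to that of Raet1d. All matches are of letters on either strand, not sites shown to be bound.

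Ulbp1 encodes MULT-1, a transmembrane ligand with high affinity for NKG2D. It was at 25.5, 23.5, 26.8 and 15.9 scaled TPM in Opa1-/- libraries, and at 33.2, 33.4, 35.6 and 31.4 in Opa1-/- + OPA1 libraries. All Opa1-/- values were below all others, and library 4 was the lowest of its group. The means were 22.9 ± 4.85 in Opa1-/- libraries and 33.4 ± 1.72 in Opa1-/- + OPA1 libraries (SD, n = 4 each), and the log2 difference was -0.55 (SE 0.14), with a range of -0.63 to -0.39 when each library was left out. Unlike the 3 other ligands it rests on many reads, 2082 to 3324 in each Opa1-/- library and 3923 to 4507 in each Opa1-/- + OPA1 library.

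Added up, the 4 ligands had 35.3, 32.8, 36.0 and 25.1 scaled TPM in Opa1-/- libraries and 34.9, 35.1, 36.9 and 32.8 in Opa1-/- + OPA1 libraries. These sums overlapped, while their makeup did not. Ulbp1 was 70.4% ± 4.69 of the sum in Opa1-/- libraries and 95.6% ± 0.595 in Opa1-/- + OPA1 libraries (SD, n = 4 each). Its share ran from 63.6% to 74.3% over Opa1-/- libraries and from 95.1% to 96.4% over Opa1-/- + OPA1 libraries. Sums and shares carry the uncertainty of the exon bases that Raet1e shares with Raet1d and H60b. Of the other ligand genes searched, H60c was listed at 0 in all 8 libraries, and Raet1a, Raet1b, Raet1c and H60a were not analysed here. The receptor gene itself, Klrk1, was also listed at 0 in all 8.

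**Figure D2:**
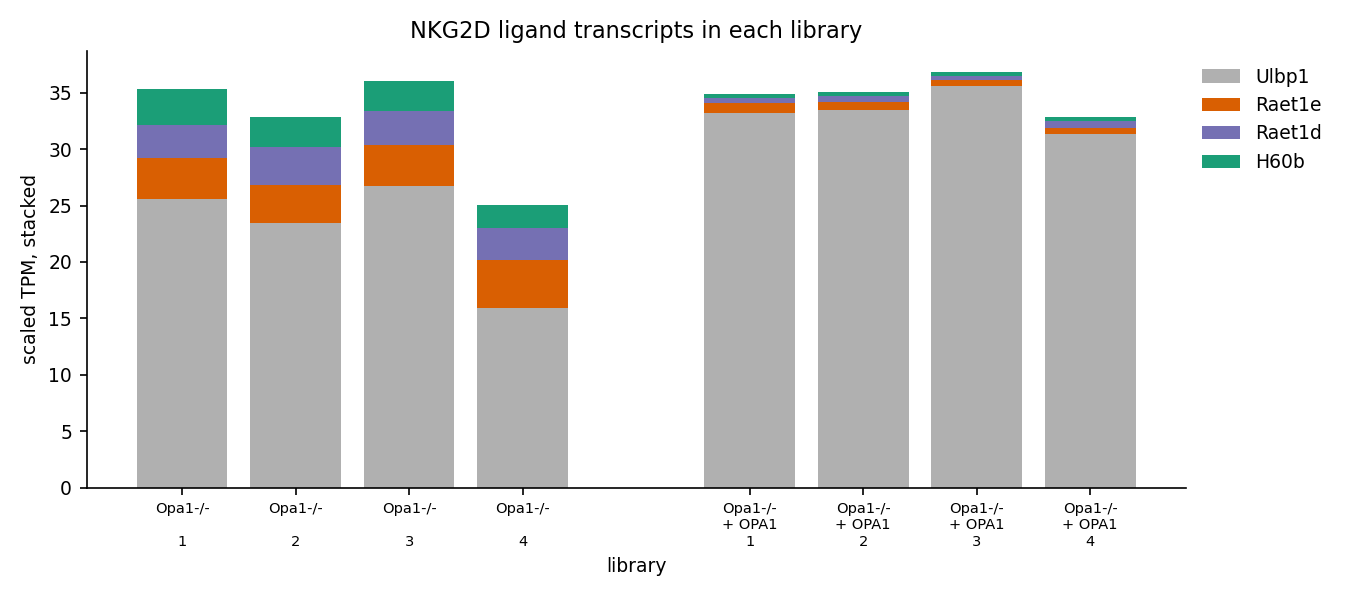
Scaled TPM of the 4 NKG2D ligand genes stacked for each library, Opa1-/- on the left and Opa1-/- + OPA1 on the right. Ulbp1 makes up most of every bar, and the other 3 ligands add 9.12 to 9.79 TPM in Opa1-/- libraries and 1.32 to 1.72 TPM in Opa1-/- + OPA1 libraries.

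The genes around the ligands did not all move with them. Within 1000 kb of the Raet1e, H60b and Raet1d stretch, 6 other genes were tested, with a median difference of 0.08. Of these, 1 was called higher and 0 lower, beside 16.3% and 16.8% of all genes tested. That gene was Eya4, a transcriptional coactivator and phosphatase, at 14.4 ± 1.97 scaled TPM in Opa1-/- libraries and 6.28 ± 0.329 in Opa1-/- + OPA1 libraries (SD, n = 4 each). Around Ulbp1, 12 other genes were tested, of which 2 were called higher and 1 lower, beside the same shares. Ust, a sulfotransferase of glycosaminoglycans, was higher at 3.69 ± 0.285 scaled TPM in Opa1-/- libraries, against 1.07 ± 0.180 in Opa1-/- + OPA1 libraries. Ginm1 was higher at 18.5 ± 1.99 in Opa1-/- libraries, against 13.4 ± 1.63 in Opa1-/- + OPA1 libraries. Lrp11 was lower at 3.43 ± 0.811 in Opa1-/- libraries, against 6.48 ± 0.193 in Opa1-/- + OPA1 libraries. All 4 were picked by position and call after their values were seen. Over the 468 tested genes of chromosome 10 with a mean log2 level above 3, the median difference was 0.05.

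**Figure D3:**
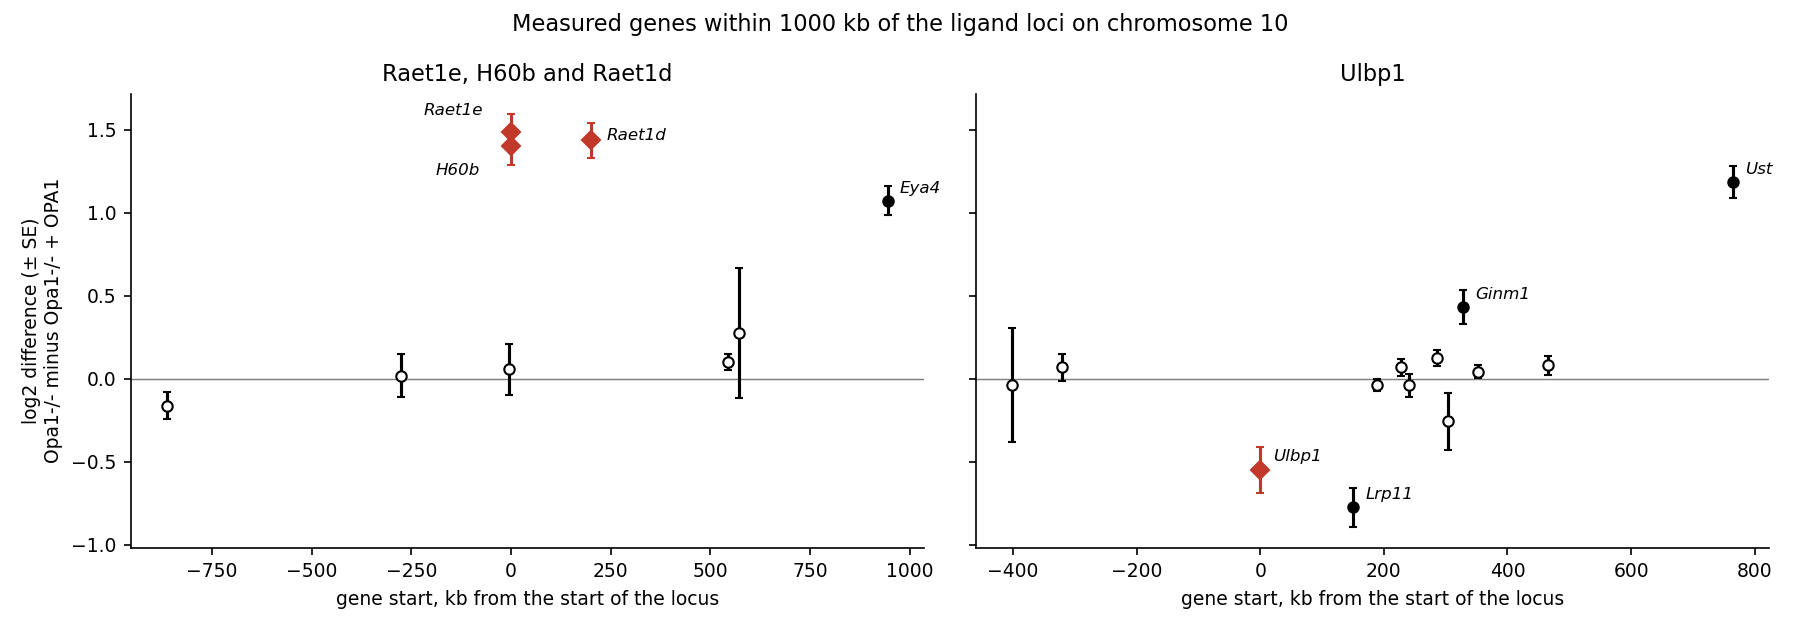
Log2 difference (± SE), Opa1-/- minus Opa1-/- + OPA1, of the tested genes within 1000 kb of the ligand loci, against the distance of each gene's start from the start of the locus in kb. Red diamonds are the ligand genes, filled dots are other genes past the threshold (Eya4 at 1.07, Ust at 1.18, Ginm1 at 0.43, Lrp11 at -0.77) and open dots are genes that did not pass it.

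Of the class I genes, both heavy chains were higher in Opa1-/- cells, beta-2 microglobulin and tapasin overlapped between the groups, Tap1 was low and higher, and the transactivator Nlrc5 was lower. H2-K1, H2-D1, Tap1 and Tapbp lie in the MHC on GRCm38 chromosome 17. Over the 495 tested genes of that chromosome with a mean log2 level above 3, the median difference was 0.01.

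H2-K1 (ENSMUSG00000061232; chromosome 17, 33996017 to 34000347, minus strand) encodes a classical class I heavy chain. It was at 51.0, 49.6, 55.8 and 51.6 scaled TPM in Opa1-/- libraries, and at 27.0, 26.4, 25.9 and 26.9 in Opa1-/- + OPA1 libraries. The groups lay far apart relative to their spread, with means of 52.0 ± 2.66 in Opa1-/- libraries and 26.5 ± 0.503 in Opa1-/- + OPA1 libraries (SD, n = 4 each), a ratio of 1.96 and a log2 difference of 0.94 (SE 0.04).

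H2-D1 (ENSMUSG00000073411; chromosome 17, 35262730 to 35267499, plus strand) encodes the other classical heavy chain measured. It was at 72.8, 74.6, 72.6 and 77.9 scaled TPM in Opa1-/- libraries, and at 53.5, 53.5, 53.1 and 53.1 in Opa1-/- + OPA1 libraries. The groups did not overlap, with means of 74.5 ± 2.47 in Opa1-/- libraries and 53.3 ± 0.250 in Opa1-/- + OPA1 libraries (SD, n = 4 each), and the difference of 0.47 (SE 0.04) was smaller than that of H2-K1. The ratio of H2-D1 to H2-K1 was 1.44 ± 0.0977 in Opa1-/- libraries and 2.01 ± 0.0356 in Opa1-/- + OPA1 libraries (SD, n = 4 each). Of their 50-base words, 9.63% for H2-K1 and 12.8% for H2-D1 occur in transcripts of other genes, and alleles other than those of the reference were not analysed here.

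B2m (ENSMUSG00000060802; chromosome 2, 122147686 to 122153083, plus strand) encodes beta-2 microglobulin, the light chain of all class I molecules. It was at 558, 584, 531 and 646 scaled TPM in Opa1-/- libraries, and at 539, 563, 566 and 564 in Opa1-/- + OPA1 libraries. The ranges overlapped and the difference was 0.05 (SE 0.06, 95% confidence interval -0.08 to 0.19). Added together, H2-K1 and H2-D1 came to 21.9% ± 1.73 of the B2m level in Opa1-/- libraries and 14.3% ± 0.428 in Opa1-/- + OPA1 libraries (SD, n = 4 each).

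Tapbp (ENSMUSG00000024308; chromosome 17, 33915899 to 33929292, plus strand) encodes tapasin, which bridges class I molecules to the peptide transporter. It was at 44.4, 41.8, 49.5 and 39.4 scaled TPM in Opa1-/- libraries, and at 46.0, 43.4, 44.3 and 45.7 in Opa1-/- + OPA1 libraries, with a difference of -0.04 (SE 0.07, 95% confidence interval -0.19 to 0.11). The ranges overlapped. It shares 904 exon bases with Gm19412 on the opposite strand, and the sources used here do not give whether strand was kept.

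Tap1 (ENSMUSG00000037321; chromosome 17, 34187553 to 34197225, plus strand), a subunit of the peptide transporter, was below 1 TPM throughout. It was at 0.497, 0.343, 0.406 and 0.376 scaled TPM in Opa1-/- libraries, and at 0.267, 0.207, 0.281 and 0.294 in Opa1-/- + OPA1 libraries. The groups did not overlap, and they rested on 164 reads over the Opa1-/- libraries and 108 over the Opa1-/- + OPA1 libraries. It shares 212 exon bases with Psmb9 on the other strand.

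Nlrc5 (ENSMUSG00000074151; chromosome 8, 94434356 to 94527272, plus strand) encodes the NOD-like protein that switches on class I genes from their promoters. It was at 0.216, 0.254, 0.293 and 0.358 scaled TPM in Opa1-/- libraries, and at 0.831, 0.774, 0.968 and 0.981 in Opa1-/- + OPA1 libraries. Every Opa1-/- library was below every Opa1-/- + OPA1 library. The mean was 0.280 ± 0.0607 in Opa1-/- libraries and 0.889 ± 0.102 in Opa1-/- + OPA1 libraries (SD, n = 4 each), 3.17-fold lower. The reads were 33, 39, 46 and 59 in Opa1-/- libraries and 135, 122, 155 and 155 in Opa1-/- + OPA1 libraries. Nlrc5 was thus lower in the libraries in which H2-K1 and H2-D1 were higher. Over the 524 tested genes of chromosome 8 with a mean log2 level above 3, the median difference was -0.18. In both groups its libraries 3 and 4 lay above libraries 1 and 2. Libraries 3 and 4 averaged 0.326 and libraries 1 and 2 averaged 0.235 in Opa1-/- cells, and in Opa1-/- + OPA1 cells these averages were 0.975 for libraries 3 and 4 and 0.803 for libraries 1 and 2.

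Since the heavy chains differed and B2m overlapped, the 250 bases before their starts are shown, again from RefSeq for GRCm38.p6, the first of the annotated starts for H2-K1. Capitals mark the NF-kB motif GGGNNTTCC in H2-K1 and H2-D1, the interferon-stimulated response element GAAANNGAA in B2m, and in all 3 the CRE core TGACG followed after 20 bases by ATTGG.
H2-K1, chr17:34000334-34000583, minus strand: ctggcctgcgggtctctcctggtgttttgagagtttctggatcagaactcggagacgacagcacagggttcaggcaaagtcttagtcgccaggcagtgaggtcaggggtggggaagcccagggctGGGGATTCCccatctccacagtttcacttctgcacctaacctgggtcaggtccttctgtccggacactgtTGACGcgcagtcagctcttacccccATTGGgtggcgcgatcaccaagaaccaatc
H2-D1, chr17:35262844-35263093, plus strand: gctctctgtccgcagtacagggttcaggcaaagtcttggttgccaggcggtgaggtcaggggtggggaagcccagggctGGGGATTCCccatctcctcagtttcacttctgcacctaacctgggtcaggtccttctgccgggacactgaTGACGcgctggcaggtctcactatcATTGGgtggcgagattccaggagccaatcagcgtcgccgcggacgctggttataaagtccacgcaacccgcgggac
B2m, chr2:122147437-122147686, plus strand: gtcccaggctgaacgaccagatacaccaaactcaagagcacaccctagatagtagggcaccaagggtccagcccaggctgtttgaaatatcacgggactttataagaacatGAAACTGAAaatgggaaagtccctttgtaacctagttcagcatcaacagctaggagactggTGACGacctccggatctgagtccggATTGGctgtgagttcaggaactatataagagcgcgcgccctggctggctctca

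TGACG and ATTGG are the cores of the X2 and Y boxes, bound by CREB or ATF proteins and by NF-Y, through which NLRC5 is known to act on class I promoters. TGACG began 55 bases before the start of H2-K1, 101 before that of H2-D1 and 78 before that of B2m. With this spacing, noticed after the matches were seen, the pair was in 31 of 32851 promoter windows (0.0944%), belonging to 27 genes that include H2-M3. Singly, TGACG was in 20.8% of windows and ATTGG in 37.4%. The X1 box cores searched, CCTAGCAAC and GCAACAG, were in 0.804% and 5.48% of windows and in no window of these genes.

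The NF-kB motif was in 5.82% of all windows and the interferon motif in 8.56%. H2-K1 and H2-D1 windows were 66.0% identical. As searched, both had the pair and the NF-kB motif, and B2m had the pair and the interferon motif. Only the form GGGNNTTCC of the NF-kB motif was searched. The printed B2m sequence holds gggaaagtccc, which that form does not match on either strand. The matches therefore do not show whether B2m lacks an NF-kB motif of another form. Likewise only the form GAAANNGAA of the interferon motif was searched. The printed H2-K1 and H2-D1 sequences both hold agtttcacttct, which that form does not match on either strand. The matches therefore do not set B2m apart from H2-K1 and H2-D1 by an interferon motif of any form. Tap1 held TTTGGCGC, an E2F motif found in 0.514% of windows, and the heat shock element. The other E2F motifs searched, TTTCCCGC (1.07% of windows) and TTTCGCGC (0.323%), were in no window of these genes.

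**Figure D4:**
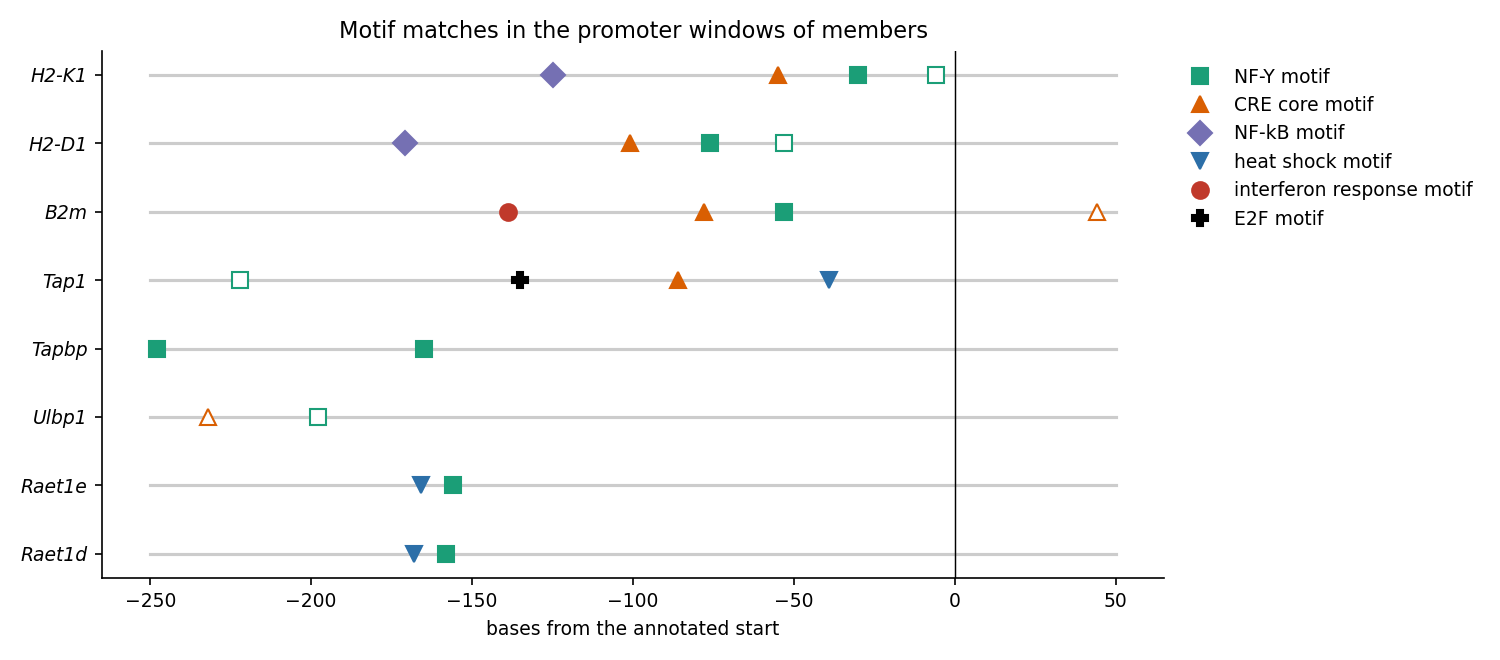
Positions of motif matches in the promoter windows of 8 of the 10 genes, in bases from the annotated start at 0; each grey line is a window from 250 bases before the start to 50 after, filled symbols are matches on the gene's strand and open symbols on the other. Raet1e is drawn at its second annotated start and H2-K1 at its first. H2-K1, H2-D1 and B2m share the CRE core motif followed by the NF-Y motif. The drawn windows of Raet1e and Raet1d share the heat shock motif at 166 and 168 bases before the start.

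Among the other class I and class I-like heavy chains, 25 of 29 names searched were in the files and 9 were tested. Of these, 4 were higher and 0 lower, with a median difference of 0.22, beside a median of -0.00 and 33.0% called over all genes tested. H2-Q8, H2-Q9, H2-T9 and H2-L were not analysed here.

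H2-Q4, a nonclassical heavy chain, was at 5.48, 6.30, 5.86 and 6.17 scaled TPM in Opa1-/- libraries, and at 2.20, 2.88, 2.21 and 1.80 in Opa1-/- + OPA1 libraries (difference 1.10, SE 0.10, limma adjusted p = 0.000108). It shares 496 exon bases with Gm11131 on the opposite strand, and whether strand was kept is not given. Fcgrt, the heavy chain of the neonatal Fc receptor that salvages antibody and albumin, was at 7.57 ± 0.647 in Opa1-/- libraries and 4.12 ± 0.835 in Opa1-/- + OPA1 libraries (0.75, SE 0.12, adjusted p = 0.00144). Cd1d1, which presents lipids to natural killer T cells, was at 3.64 ± 0.406 in Opa1-/- libraries and 2.08 ± 0.0618 in Opa1-/- + OPA1 libraries (0.59, SE 0.08, adjusted p = 0.000941). All 3 pair with beta-2 microglobulin, and their values did not overlap between the groups.

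H2-T23, which encodes Qa-1, the ligand of the inhibitory receptor CD94-NKG2A, was at 4.81 ± 0.443 scaled TPM in Opa1-/- libraries and 3.60 ± 0.625 in Opa1-/- + OPA1 libraries (0.34, SE 0.11, adjusted p = 0.0368). That call was lost in 8 of 18 alternatives, with adjusted p of 0.0506 to 0.0891 without library 2, 3 or 4 of either group. Mr1, which presents vitamin metabolites and was too low to test, was at 0.690 ± 0.0313 in Opa1-/- libraries and 0.129 ± 0.0388 in Opa1-/- + OPA1 libraries. Procr, the endothelial protein C receptor and the most abundant of the list, was at 9.31 ± 0.867 in Opa1-/- libraries and 9.82 ± 0.918 in Opa1-/- + OPA1 libraries and did not pass the test. H2-M3, which presents formylated peptides such as those of mitochondria, was at 9.02 ± 0.600 in Opa1-/- libraries and 9.73 ± 0.993 in Opa1-/- + OPA1 libraries (-0.10, SE 0.08, adjusted p = 0.380). H2-M3 and Mr1 were singled out after their values were seen.

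In the peptide loading and trimming list, 8 of 9 genes were tested, with a median of -0.10. Of these, 1 was higher and 2 lower, beside 16.3% and 16.8% of all genes tested. Calr, encoding calreticulin, the chaperone of the loading complex, was lower at 559 ± 89.7 scaled TPM in Opa1-/- libraries, against 839 ± 95.8 in Opa1-/- + OPA1 libraries (-0.59, SE 0.12, adjusted p = 0.00498). Tapbpl, a tapasin-related peptide editor, was higher at 13.1 ± 0.526 in Opa1-/- libraries, against 10.1 ± 0.403 in Opa1-/- + OPA1 libraries (0.34, SE 0.05, adjusted p = 0.00104). Bcap31, a cargo receptor of the endoplasmic reticulum on chromosome X, was lower at 246 ± 26.3 in Opa1-/- libraries, against 320 ± 4.02 in Opa1-/- + OPA1 libraries (-0.39, SE 0.07, adjusted p = 0.00257). With chromosome medians removed, its difference was -0.04 (adjusted p = 0.703) and the call was lost. Tap2, the partner of Tap1 and too low to test, was at 1.05 ± 0.0875 in Opa1-/- libraries and 0.422 ± 0.0521 in Opa1-/- + OPA1 libraries. Without Opa1-/- library 4, 5 genes of the list were called.

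The interferon-inducible proteasome subunits Psmb8 and Psmb9 were nearly unexpressed, at most 0.106 scaled TPM in Opa1-/- libraries and 0.0765 in Opa1-/- + OPA1 libraries. Of the 3 other genes of the immunoproteasome and PA28 list, Psme1, a subunit of the PA28 activator, was higher at 59.1 ± 7.30 in Opa1-/- libraries, against 45.9 ± 1.06 in Opa1-/- + OPA1 libraries (0.35, SE 0.08, adjusted p = 0.00794), and 0 were lower. Its partner Psme2 was at 57.9 ± 3.87 in Opa1-/- libraries and 55.6 ± 3.22 in Opa1-/- + OPA1 libraries. The median of the list was 0.12, and all 3 genes were called with chromosome medians removed. Of the 3 constitutive catalytic subunits, Psmb6 was higher (0.26, SE 0.06, adjusted p = 0.0144), 0 were lower, and the median was 0.05. Both proteasome lists stand beside 16.3% of all genes tested called higher and 16.8% lower.

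Of 12 tested factors that bind class I promoters, 1 was higher and 4 lower, beside 16.3% and 16.8% of all genes tested. The median was -0.08. Rfx5, the DNA-binding subunit of the X1 box complex, was higher at 11.2 ± 0.705 scaled TPM in Opa1-/- libraries, against 8.76 ± 0.367 in Opa1-/- + OPA1 libraries (0.32, SE 0.06, adjusted p = 0.00303). Its partner Rfxap was lower (-0.30, SE 0.07, adjusted p = 0.00761), as were Nfyc, a subunit of NF-Y (-0.33, SE 0.04, adjusted p = 0.000352), Creb1, which binds the CRE core (-0.25, SE 0.06, adjusted p = 0.00915), and Nfkb1, an NF-kB subunit (-0.21, SE 0.04, adjusted p = 0.00403). Rela, the most abundant of the list, was at 105 ± 4.14 in Opa1-/- libraries and 109 ± 0.969 in Opa1-/- + OPA1 libraries and did not pass. The Creb1 call was lost on TPM as deposited (adjusted p = 0.0728), that of Nfkb1 there (0.0681) and with length and GC trends removed (0.0731), and that of Rfxap with both libraries numbered 3 left out (adjusted p = 0.0517). Ciita, the class II transactivator, was at 0.0797 TPM or less in all libraries.

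Of 13 genes of interferon receptors and JAK-STAT signalling, all tested, 3 were higher and 2 lower, with a median of -0.02. Over all genes tested, these shares were 16.3% and 16.8%. Socs3, a feedback inhibitor of cytokine receptors, was at 25.8, 25.5, 25.2 and 24.7 scaled TPM in Opa1-/- libraries, and at 18.5, 17.6, 16.1 and 14.6 in Opa1-/- + OPA1 libraries (0.58, SE 0.07, adjusted p = 0.000328). Its relative Socs1 was lower (-0.21, SE 0.04, adjusted p = 0.00431), as was the kinase Jak2 (-0.20, SE 0.05, adjusted p = 0.0118). Stat2, a subunit of the interferon-activated factor ISGF3, was called higher (0.27, SE 0.09, adjusted p = 0.0438), and the kinase Tyk2 as well (0.17, SE 0.05, adjusted p = 0.0371). The Stat2 call was lost in 10 of 19 alternatives, with adjusted p of 0.0583 to 0.115 without Opa1-/- library 3 or 4 or any 1 Opa1-/- + OPA1 library, and that of Jak2 on TPM as deposited (adjusted p = 0.109). The Tyk2 call was lost in 12 of 19 alternatives, among them the replicate number as a block (adjusted p = 0.0757), chromosome medians removed (0.319) and, at 0.0566 to 0.117, leaving out Opa1-/- library 1, 2 or 3 or Opa1-/- + OPA1 library 1, 2 or 3. Without Opa1-/- + OPA1 library 1, 2 or 3, 3 genes of the list were called. Ptpn2, a phosphatase and the most abundant of the list, was at 63.0 ± 3.19 in Opa1-/- libraries and 63.6 ± 0.711 in Opa1-/- + OPA1 libraries and did not pass.

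Of 14 reported regulators of NKG2D ligand genes, all tested, 2 were higher and 2 lower, with a median of -0.02. Over all genes tested, these shares were 16.3% and 16.8%. The checkpoint kinases Chek1 (0.26, SE 0.04, adjusted p = 0.00108) and Chek2 (0.22, SE 0.06, adjusted p = 0.0164) were higher. The transcription factors Sp1 (-0.21, SE 0.06, adjusted p = 0.0336) and E2f1 (-0.18, SE 0.05, adjusted p = 0.0186) were lower. Atf4, which drives amino acid stress genes and was the most abundant, was at 655 ± 77.4 scaled TPM in Opa1-/- libraries and 545 ± 61.1 in Opa1-/- + OPA1 libraries (0.26, SE 0.10, adjusted p = 0.0731). The kinases Atm and Atr, p53 (Trp53) and Myc did not pass the test. The Sp1 call was lost in 10 of 19 alternatives, with adjusted p of 0.0560 to 0.0887 without any 1 library other than Opa1-/- library 3. The call of Chek2 was lost on TPM as deposited (adjusted p = 0.0647) and with chromosome medians removed (0.0617), and that of E2f1 in 3 of 19 alternatives, including without Opa1-/- + OPA1 library 2 (0.0567), when 2 genes of the list were called.

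Of 8 proteases and partners reported, mostly in human cells, to release NKG2D ligands from the cell surface, 1 was higher and 4 lower. The median was -0.19, and over all genes tested 16.3% were higher and 16.8% lower. The metalloproteinase Mmp2 was lower at 92.1 ± 6.95 scaled TPM in Opa1-/- libraries, against 148 ± 4.88 in Opa1-/- + OPA1 libraries (-0.68, SE 0.06, adjusted p = 5.8e-05). Pdia6, a disulfide isomerase that aids shedding of human MICA, was lower at 225 ± 12.4 in Opa1-/- libraries, against 325 ± 18.3 in Opa1-/- + OPA1 libraries (-0.53, SE 0.05, adjusted p = 0.000180). Mmp9 (-0.52, SE 0.15, adjusted p = 0.0301) and the membrane-bound Mmp14 (-0.27, SE 0.07, adjusted p = 0.0212) were also lower. Adam10 was higher at 103 ± 8.72 in Opa1-/- libraries, against 85.7 ± 1.88 in Opa1-/- + OPA1 libraries (0.26, SE 0.06, adjusted p = 0.00931), and Adam17 did not pass. The Adam10 call was lost with both libraries numbered 3 left out (adjusted p = 0.0591). The Mmp9 call was lost in 7 of 18 alternatives, with adjusted p of 0.0731 to 0.0885 without Opa1-/- library 1 or 2 or Opa1-/- + OPA1 library 2, 3 or 4. The Mmp14 call was lost in 5 of 19, including without Opa1-/- + OPA1 library 1 (0.0604) or 3 (0.0504). With chromosome medians removed, the Mmp14 difference was -0.10 (adjusted p = 0.327). Without Opa1-/- + OPA1 library 3, 3 genes of the list were called.

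Of 11 tested ligands of other natural killer cell receptors and death receptors of target cells, 0 were higher and 3 lower. The median was -0.08, and over all genes tested 16.3% were higher and 16.8% lower. Cadm1, an adhesion molecule recognised by CRTAM on activated natural killer and T cells, was at 11.0, 10.5, 11.9 and 9.21 scaled TPM in Opa1-/- libraries, and at 23.9, 23.1, 22.7 and 22.9 in Opa1-/- + OPA1 libraries (-1.06, SE 0.07, adjusted p = 2e-05). All Opa1-/- libraries were well below all others. The death receptors Fas (-0.64, SE 0.18, adjusted p = 0.0217) and Tnfrsf10b (-0.28, SE 0.05, adjusted p = 0.00262) were lower too. The Fas call was lost in 6 of 19 alternatives, with adjusted p of 0.0552 to 0.0613 without Opa1-/- library 1 or 2 or Opa1-/- + OPA1 library 3 or 4, and that of Tnfrsf10b with chromosome medians removed (0.163). Pvr and Nectin2, ligands of the activating receptor DNAM-1, and Cd47, the most abundant, did not pass.

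**Figure D5:**
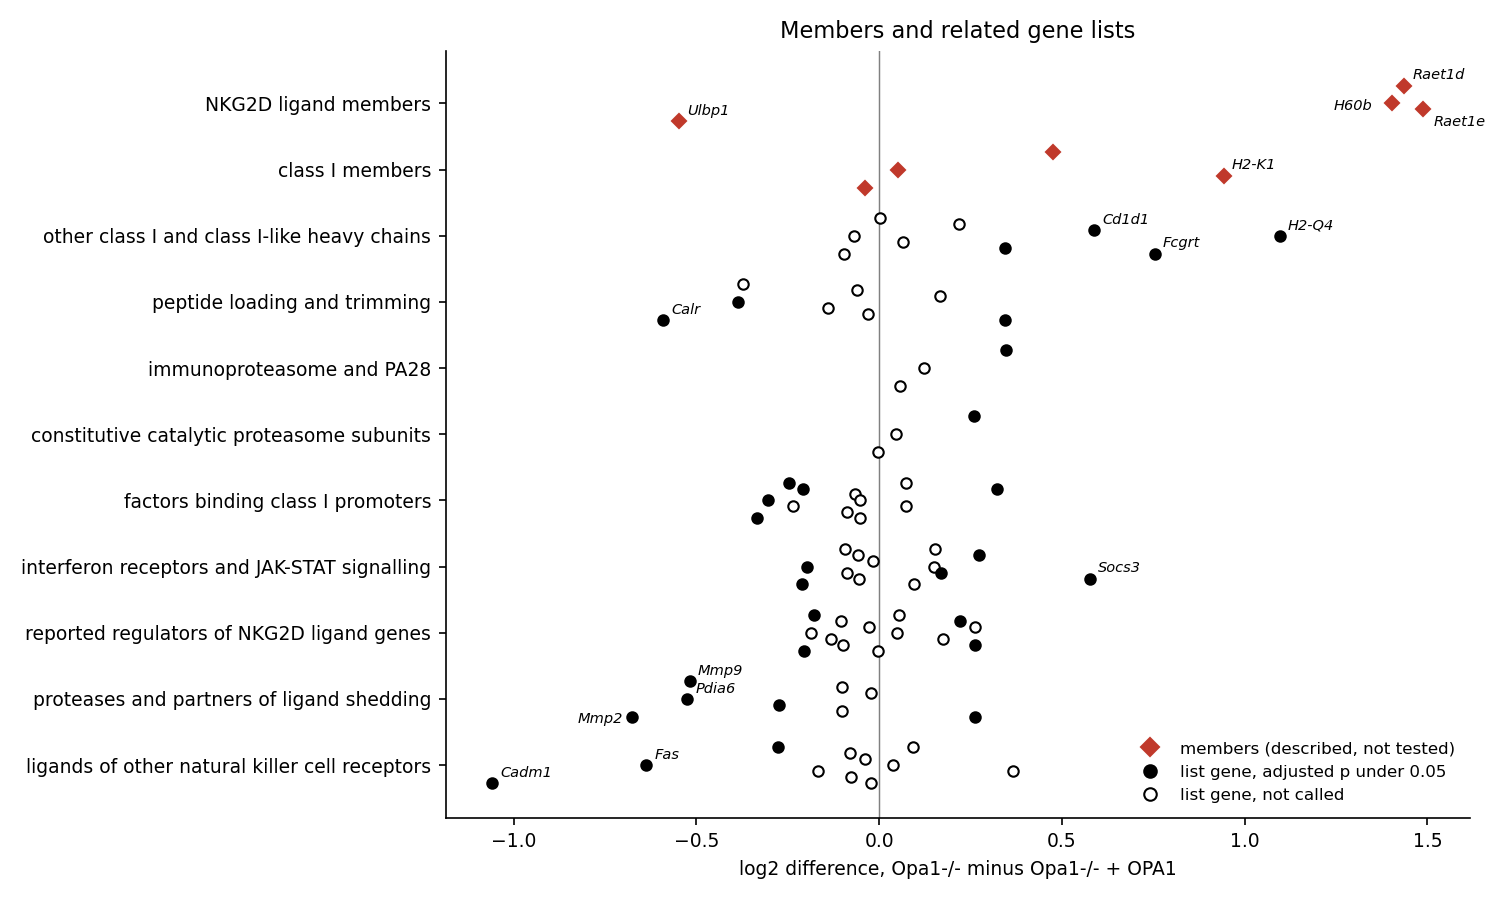
Log2 difference, Opa1-/- minus Opa1-/- + OPA1 (horizontal axis), of the 8 of the 10 genes that entered the fit (red diamonds, given as a description, with no test drawn from them) and of the genes of 9 related lists (dots, filled where limma adjusted p was below 0.05); vertical offsets within a row only separate the dots. Raet1d, Raet1e and H60b lie at 1.40 to 1.49, H2-Q4 at 1.10 and Cadm1 at -1.06.

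Markers of immune and endothelial cells were low. Of 13 rows of immune cell markers, only the macrophage gene Cd68 was high enough to test and did not pass, and their sum was 2.24 to 7.20 scaled TPM in Opa1-/- libraries and 3.84 to 5.83 in Opa1-/- + OPA1 libraries. Ptprc, the pan-leukocyte CD45 gene, was at most 0.0118 in Opa1-/- libraries and 0.0174 in Opa1-/- + OPA1 libraries. Of 5 endothelial markers 0 were high enough to test, with sums of 0.339 to 0.521 in Opa1-/- libraries and 0.362 to 0.395 in Opa1-/- + OPA1 libraries.

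Among 6 epithelial markers, 3 were tested and 2 were higher, Krt8 at 4.61 scaled TPM in Opa1-/- libraries, against 2.20 in Opa1-/- + OPA1 libraries (0.80, adjusted p = 0.00059), and Cdh1 at 12.9 in Opa1-/- libraries, against 8.10 in Opa1-/- + OPA1 libraries (0.61, adjusted p = 0.00206). Krt18, by far the most abundant of the list, was at 170 ± 16.5 in Opa1-/- libraries and 165 ± 29.4 in Opa1-/- + OPA1 libraries. It did not pass the test (0.05, adjusted p = 0.779). The sum of the list, mostly Krt18, was 176 to 213 in Opa1-/- libraries and 144 to 207 in Opa1-/- + OPA1 libraries. Epcam was 0.271 to 0.530 in Opa1-/- libraries and 0.0780 to 0.154 in Opa1-/- + OPA1 libraries. Among 10 fibroblast markers 8 were tested, 1 was higher and 5 lower, with sums of 2217 to 2485 in Opa1-/- libraries and 2659 to 2685 in Opa1-/- + OPA1 libraries. The largest differences of called genes were those of S100a4 (-0.84, adjusted p = 0.000774), Col1a2 (-0.56, adjusted p = 0.000513), Dcn (-0.55, adjusted p = 0.000265) and Col1a1 (-0.52, adjusted p = 0.00192). Vim, Col1a1 and Pdgfrb were well expressed, while Pdgfra stayed below 1 TPM and Lum near 0. Of 6 class II genes 2 were tested, with Cd74 higher (0.52, adjusted p = 0.0313, lost in 7 of 18 alternatives, at 0.0562 to 0.0820 without Opa1-/- library 3 or 4 or Opa1-/- + OPA1 library 1, 2 or 3) and H2-DMa lower (-0.44, adjusted p = 0.00266). Counts of called markers stand beside 16.3% of all genes tested called higher and 16.8% lower. The part of these markers in the differences above was not tested.

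Levels most like a mean profile of the ligands were sought by the Pearson correlation over the 8 libraries, a figure that mainly reflects the difference between the groups. The profile was the mean standardized log2 level of the 4 ligand genes, without a change of sign. It thus joins Raet1d, Raet1e and H60b, which were higher in Opa1-/- libraries, with Ulbp1, which was lower. The class I profile likewise joins H2-K1 and H2-D1, which were higher, with Nlrc5, which was lower. The 5 highest were Npr3 (0.997), Me1 (0.996), Tgfbr3 (0.994), Parm1 (0.993) and Rims2 (0.993), encoding among others a natriuretic peptide receptor, malic enzyme and betaglycan. For the 6 class I genes they were Camta2 (0.990), Ass1 (0.988), Srr (0.985), Phf21a (0.983) and Foxa2 (0.982). These genes were higher in Opa1-/- libraries, by 0.29 to 0.80 on the log2 scale for the first 5 and 0.23 to 0.44 for the second. Between the groups they thus went the other way from Ulbp1 and Nlrc5.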

How the data were processed

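Each of 8 libraries, 4 per group, has a file of TPM for 49315 genes that the authors deposited, its unit given by the file headers. The submitters' processing notes name STAR 2.5.2b, Subread 1.5.2, featureCounts and bcl2fastq 2.17, with GRCh38 and mm10 as builds of no stated role. The handling of strand and of shared or multi-mapped reads is not given there.

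Libraries were scaled by an unweighted trimmed mean of log ratios, cutting 30% of the ratios and 5% of the levels from either end. The 14272 genes that reached 1 TPM in 4 libraries or more were fitted with limma 3.58.1 in R 4.3.3, with a mean-variance trend, on log2(scaled TPM + 1), two-sided, and called at Benjamini-Hochberg adjusted p below 0.05. The procedure was tested on simulated data, where the share of false calls was somewhat above the nominal level of the adjusted p, so calls close to that threshold are less certain than it states. Reads were recovered from TPM times exon length in GENCODE M21, which held 49056 identifiers, and 95.0% to 95.8% of low values were whole within 0.05 read. No pair of libraries of a group agreed within sampling noise (lowest chi-square per degree of freedom 4.41). Libraries with the same number deviated together, with correlations of 0.25, 0.22, 0.32 and 0.12 for numbers 1 to 4. Those of unlike number gave -0.32 to 0.11, so number 4 was barely above them. The numbers were taken to pair the libraries, and a fit with that block was run as an alternative.

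The genes described and the gene lists were chosen with earlier results of these data known. Of each list the text names up to 4 called genes with the largest difference and the most abundant gene, and other genes as single cases after their values were seen. Other list genes are counted without their values, and 1 marker list is not reported here. Likeness was sought among genes at 5 TPM or more with a symbol. Alternatives were TPM as deposited, 2 other scalings, another pseudocount, other filters, the block, chromosome medians removed, length and GC trends removed, limma-voom on recovered reads, both libraries numbered 3 left out, and each library left out. Other steps ran in Python 3.11.15 with Biopython 1.88, matplotlib 3.10.9, pandas 2.3.3 and numpy 2.4.6.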

Additional observations from a re-analysis of the deposited data

Results flagged for a closer look

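Among 118 groups of 4 libraries, 5 held a library that stood apart from the rest by the gap to its neighbour relative to the whole range, and chance flags about 1 in 20 such groups. B2m was at 538.9 scaled TPM in Opa1-/- + OPA1 library 1, and the other libraries of that group were at 563.3 to 566.4. Adam10 was at 90.3 in Opa1-/- library 4, and the others were at 107.1 to 108.7. Creb1 was at 14.3 in Opa1-/- library 3, and the others were at 12.8 to 12.9. Tapbpl was at 9.47 in Opa1-/- + OPA1 library 3, and the others were at 10.26 to 10.32. Vim was at 1573.7 in Opa1-/- library 4, and the others were at 1347 to 1368.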

How the results depend on the processing

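Of the 10 genes described, 6 were past the threshold in every alternative except the filter of 5 TPM and the fit without a filter. That filter removed the 3 scarce ligands and left 3, and the fit without one gave 7. The genes were chosen on this contrast, and the 3 scarce ligands entered the main fit through the Opa1-/- group alone, so nothing is read from these counts. Over all genes tested in the main fit, 33.0% were called. The differences of the 10 genes moved by less than the spread between libraries in 145 of 151 comparisons, and the other 6 are those of Raet1d, Raet1e and H60b on other scales given with their values. Genes called numbered 4714, 4757 with the replicate number as a block, 3281 on TPM as deposited and 3551 to 5437 when each library was left out. Direction was kept in all but 1 comparison, the uncalled difference of Tapbp, which was 0.01 without Opa1-/- library 4 and -0.04 with all libraries. Among the named genes the block ended only the call of Tyk2, and it gave 6 called ligand regulators, against 4 without it.

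Counts that moved more than 1.5-fold were these. A filter of 5 TPM gave 2 of the other class I heavy chains (4 as reported) and 5 peptide loading genes (3), and limma-voom on recovered reads also gave 5. Chromosome medians removed gave 3 immunoproteasome genes (1). On TPM as deposited, 3 promoter factors (5), 2 interferon genes (5), 1 ligand regulator (4) and 3 shedding genes (5) were called. Without a filter, 3 interferon and 3 shedding genes were called, and with both libraries numbered 3 left out, 3 interferon genes. Leaving out each library gave 3 to 5 other class I, 3 to 5 peptide loading, 5 to 7 promoter factor, 3 to 4 interferon, 2 to 5 regulator, 3 to 6 shedding and 2 to 4 other ligand genes, and 1 gene for each proteasome list. The cause of these moves was not tested, other than that a filter tests fewer genes. No called difference of a named gene changed sign. Calls of the named list genes were kept in 658 comparisons and lost in 78. Depth limits Raet1d, Raet1e, H60b, Tap1 and Nlrc5, which rest on few reads.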
